A study of Mus musculus with 10 samples.

Results

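Liver metastases were compared with the lung tumor of the same animal in mice that develop small cell lung cancer, a fast-growing neuroendocrine cancer that spreads early and often to the liver. Of the 10 bulk RNA sequencing libraries of the series, 8 belong to the 4 mice for which both a liver metastasis and a lung tumor were sequenced, and these 4 pairs are described here. The rule for the pairs used the mouse tag in the labels and no measured value, though earlier results of these data were known. The 2 lung tumors whose mice have no metastasis library were left out. Of the 4 mice, 2 (JHK1398 and JHK1399) had the genotype RPR2;Nfibf/f, called Nfib-floxed here, and 2 (JHK1373 and JHK1394) had the genotype RPR2. All 4 share the RPR2 background, a model in which lung cells lose Rb1, Trp53 and Rbl2, all tumor suppressors. The Nfib-floxed mice carry in addition conditional alleles of Nfib, a transcription factor gene of the nuclear factor I family. Nfib transcript was present in every library, with 46.1, 41.3, 62.8 and 643 TPM in the metastases of JHK1398, JHK1399, JHK1373 and JHK1394, against 38.0, 26.5, 85.3 and 28.3 TPM in their lung tumors. The level in the Nfib-floxed libraries thus overlapped that in RPR2 lung tumors, and gene-level values do not show which exons were read. Tumors were macrodissected from lung and liver when the animals had become moribund, so a library can hold surrounding tissue beside tumor. The labels used here give no age, treatment or Cre driver, and they do not say that a metastasis was seeded by the lung tumor sampled from the same mouse.

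A metastasis has to leave the lung, survive in blood and grow among liver cells, and a pair from 1 animal shares that animal's inherited genotype, age and housing. Lung holds club cells, alveolar type 1 and type 2 cells and much capillary endothelium, whereas liver holds hepatocytes, stellate cells, Kupffer cells and a fenestrated endothelium. Small cell tumors of this model arise in the airway lining and express neuroendocrine genes.

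Levels are given in TPM, a relative unit of transcript abundance that the authors computed and that is normalized for transcript length and library total. The difference of a pair is log2(TPM + 1) of the metastasis minus that of the lung tumor, a scale that understates the change of genes with low levels. Each library sums to 1000000 TPM, so sequencing depth is unknown. Tests used limma with the mouse as a block, for the 15419 genes whose level averaged 1 TPM or more across these 8 libraries, with a threshold of 0.05 on the p-value after Benjamini-Hochberg adjustment over those genes. Each mouse gave 1 library per tissue, so n = 4 pairs. The value after ± is limma's moderated standard error of the mean difference, in which each gene's variance is drawn toward a trend over all genes. It can thus be smaller than the spread of a gene's own 4 differences would give. For comparisons of the genotypes it is the moderated standard error of the difference between the changes. Where 4 values stand together they follow the order JHK1398, JHK1399, JHK1373, JHK1394, the first 2 being Nfib-floxed and the last 2 RPR2.

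Some libraries stood apart. Every metastasis correlated best, over all tested genes, with the lung tumor of JHK1373 (r = 0.932, 0.913, 0.845 and 0.839). With the lung tumor of its own mouse r was 0.807, 0.908, 0.845 and 0.767, so the metastases of JHK1398, JHK1399 and JHK1394 were each closer to the lung tumor of another mouse than to their own. The lung tumors differed widely in normal airway: the summed level of 8 club cell markers was 56038, 1684, 9228 and 60637 TPM. Hemoglobin and other erythroid transcripts made up 476, 42988, 64959 and 4142 TPM of the metastases, against 667, 11756, 6490 and 6344 TPM of the lung tumors. Mitochondrially encoded transcripts summed to 64155, 66218, 60034 and 54430 TPM in the metastases, against 128670, 71251, 49822 and 43238 TPM in the lung tumors, highest in that of JHK1398. The Y-linked gene Eif2s3y was near 0 in both tumors of 3 mice and present in both tumors of JHK1394. Both tissues of every mouse thus matched in whether this gene was expressed, and the sex of the animals was not tested.

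Across the transcriptome the 4 pairs moved together mainly at genes that were lower in the metastasis. In all 4 pairs 1231 genes were higher in the metastasis (7.98% of those tested) and 2161 were lower (14% of those tested). Past a difference of 1 in every pair, 19 genes were higher (0.123%) and 216 were lower (1.4%). The 4 metastases lay above all 4 lung tumors for 255 genes (1.65%) and below all 4 for 861 genes (5.58%). The balance between the directions depended on scaling: with quantile normalization 2213 genes were higher and 1573 lower in all 4 pairs, and with median centring 2160 and 1532. The pairs also differed in how far apart their 2 tumors were, since 6043, 2584, 3973 and 5491 genes differed by more than 1 in the pairs of JHK1398, JHK1399, JHK1373 and JHK1394. With any 1 pair left out, 4128 to 5865 genes moved one way in the 3 that remained, a wider net by construction.

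By the paired limma test no gene rose (0%) and 3 genes fell (0.0195%) in the metastases, all 3 markers of normal lung epithelium: Sftpb, Sftpc and Cbr2. At an unadjusted p under 0.05 there were 739 genes higher and 1594 lower, and the smallest adjusted p of a higher gene was 0.0532. Leaving out the pair of JHK1394 or that of JHK1398 left 0 genes past the threshold, leaving out JHK1373 left 9, and leaving out JHK1399 left 47, each of them lower in metastases. A model added after the data had been seen lets the Nfib-floxed and RPR2 pairs have changes of their own and averages them. In that model 92 genes rose (0.597%) and 317 fell (2.06%), of which 62 and 239 moved the same way in all 4 pairs. It is named below as the model with a genotype term, and its calls are given beside the planned ones. Without the mouse block, 3 genes rose and 28 fell.

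**Figure D1:**
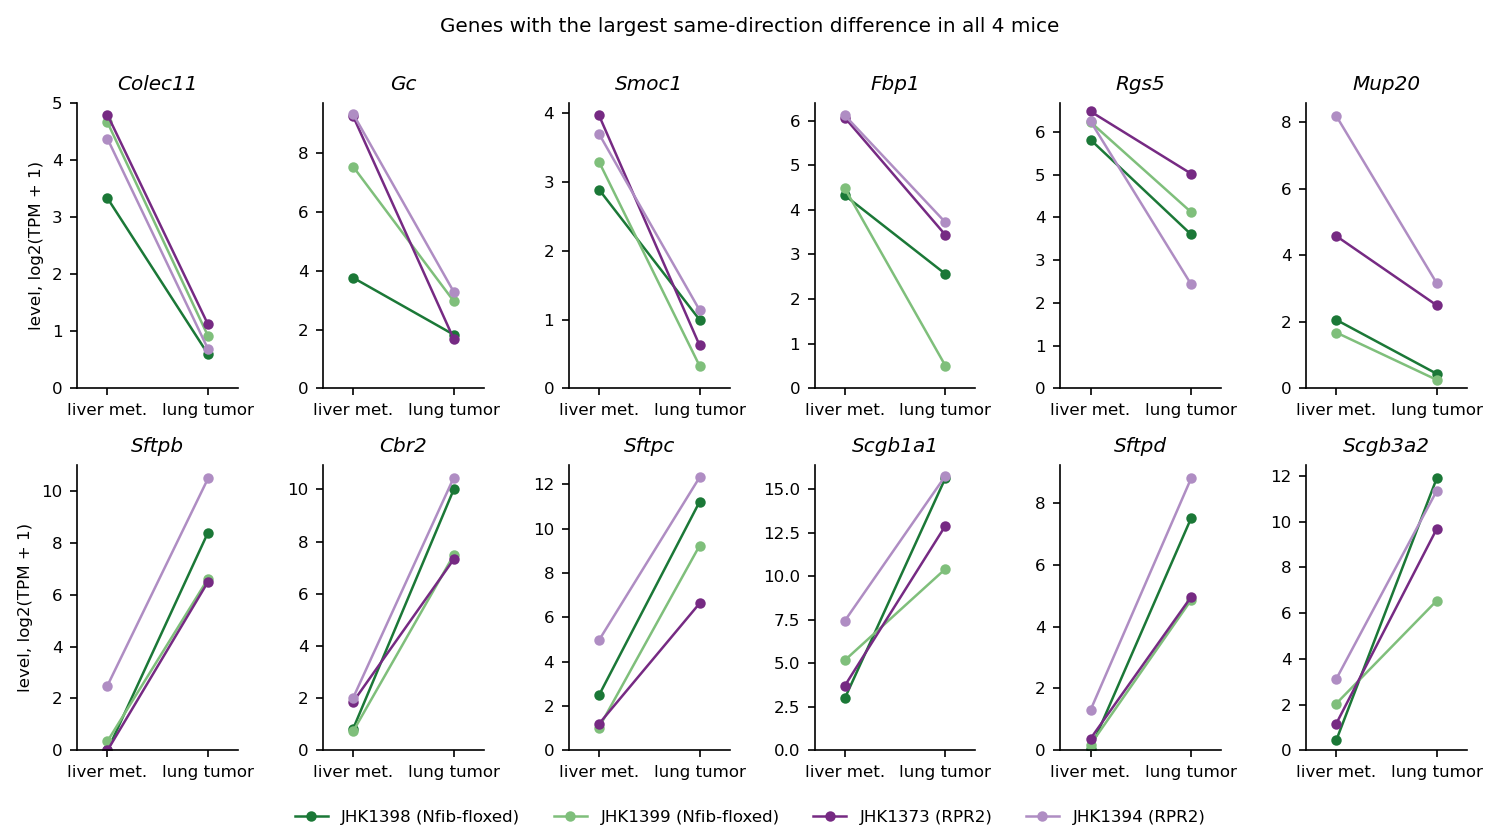
Level in log2(TPM + 1) of 12 genes in the liver metastasis (left point) and the lung tumor (right point) of each mouse, joined by a line per mouse, for the 6 genes per direction with the largest smallest difference over the 4 pairs. Top row, higher in every metastasis, from Colec11 with a smallest difference of 2.74; bottom row, lower in every metastasis, from Sftpb with a smallest difference of 6.25 in size.

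Genes of normal lung epithelium had the largest smallest differences among the lower genes. Surfactant protein B, the product of Sftpb that spreads the lipid film of the alveoli, stood at 0, 0.279, 0 and 4.64 TPM in the metastases, against 335, 96.6, 89.1 and 1418 TPM in the lung tumors (difference -7.28 ± 0.44, adjusted p = 0.00718). Sftpc, the type 2 cell surfactant gene on chromosome 14 (GRCm38, 70520949 to 70524081, minus strand), had 4.6, 1.04, 1.29 and 30.3 TPM in the metastases, against 2357, 597, 97.7 and 5061 TPM in the lung tumors (difference -7.42 ± 0.52, adjusted p = 0.00977). Cbr2, a carbonyl reductase of club cells on chromosome 11 (120729489 to 120732114, minus strand), had 0.785, 0.669, 2.64 and 3.06 TPM in the metastases, against 1021, 178, 159 and 1398 TPM in the lung tumors (difference -7.45 ± 0.59, adjusted p = 0.0164). In each of the 3 genes the groups were far apart, and the metastasis of JHK1394 held the most residual transcript.

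Scgb1a1, the main secretory protein of club cells, had 6.92, 35.0, 12 and 172 TPM in the metastases, against 50157, 1358, 7540 and 54787 TPM in the lung tumors. Its difference of -8.84 ± 1.0 just missed the planned threshold (adjusted p = 0.0532) and passed in the model with a genotype term (adjusted p = 0.0134). Of 12 alveolar type 2 markers 11 were lower in all 4 pairs (against 14% of all genes tested), of 8 club cell markers 7, of 9 alveolar type 1 markers 6 and of 10 lung endothelium markers 8, with 1 type 1 marker and 1 endothelial marker higher in all 4. The medians over these lists were -4.0, -5.44, -2.82 and -1.11, against -0.04 over all genes tested. In the lists' summed levels, alveolar type 2 markers made up 32.5, 54.7, 23.7 and 65.6 TPM of the metastases and 3273, 871, 288 and 8186 TPM of the lung tumors.

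Genes outside the marker lists were lower in the same way. Sfta2, a surfactant-associated secreted protein, was listed at 0 in 3 metastases and at 0.368 TPM in that of JHK1394, against 154, 27.3, 11.7 and 168 TPM in the lung tumors. Fmo2, the flavin monooxygenase of lung, had 0.0843, 3.73, 4.26 and 5.52 TPM in the metastases and 66.7, 72.2, 47.1 and 155 TPM in the lung tumors (difference -4.42 ± 0.48). Neither passed in the planned fit (adjusted p = 0.0532 for both), and both fell in the model with a genotype term (adjusted p = 0.0134 for both). Obp2a, an odorant-binding protein gene, had 0.0953, 4.34, 0.0943 and 1.79 TPM in the metastases and 117, 3618, 18.5 and 20.2 TPM in the lung tumors, uneven among the lung tumors. Mgp, a matrix protein of vessels and cartilage and a member of the fibroblast list, had 27.2, 32.3, 47.5 and 43.5 TPM in the metastases and 787, 457, 354 and 345 TPM in the lung tumors, a narrow spread within each tissue (difference -3.60 ± 0.36, adjusted p = 0.0532, and 0.00629 with a genotype term). In bulk tissue fewer cells of a type and less RNA per cell cannot be told apart, and which share of any difference came from normal lung beside the lung tumor was not tested.

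Liver genes were the counterpart, but not in every pair. Of 35 hepatocyte markers 15 were higher in all 4 pairs (against 7.98% of all genes tested) and none was lower in all 4, and the list's median difference was -0.08 in JHK1398 against 2.78, 5.53 and 4.52 in JHK1399, JHK1373 and JHK1394. Albumin (Alb) had 26.3, 1159, 3760 and 3555 TPM in the metastases, against 31.9, 47.9, 20.9 and 68.3 TPM in the lung tumors, so the metastasis of JHK1398 held no more albumin transcript than its lung tumor. Without the pair of JHK1398, where fewer pairs have to fit, 32 of the 35 were higher in every remaining pair. Over all 15419 genes tested, 5210 were higher in the pair of JHK1373, so at most that many were higher in every remaining pair. Gc, which encodes the vitamin D-binding protein of plasma, was the hepatocyte gene with the largest smallest difference, with 12.5, 185, 608 and 643 TPM in the metastases against 2.54, 6.80, 2.2 and 8.72 TPM in the lung tumors (difference 5.03 ± 0.81, adjusted p = 0.111, and 0.0127 with a genotype term). In the planned fit no hepatocyte gene passed, and 23 of the 35 rose in the model with a genotype term, against 0.597% of all genes tested.

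Of the genes higher in all 4 metastases, the one with the largest smallest difference was Colec11, a collectin of stellate cells and hepatocytes on chromosome 12 (28594173 to 28623377, minus strand). It had 9.10, 24.4, 26.8 and 19.8 TPM in the metastases, against 0.515, 0.890, 1.17 and 0.613 TPM in the lung tumors. The difference was 2.74, 3.75, 3.68 and 3.69 in the 4 pairs (mean 3.46 ± 0.39, adjusted p = 0.0532, and 0.0145 with a genotype term). It was higher in the metastasis of JHK1398 as well, where albumin was not. Other genes of stellate cells and vessel-wall cells shared that pattern. Rgs5, a regulator of G protein signaling in pericytes, had 55.3, 74.0, 88.1 and 74.9 TPM in the metastases and 11.1, 16.4, 31.5 and 4.41 TPM in the lung tumors, with no overlap (difference 2.40 ± 0.41, adjusted p = 0.113, and 0.0325 with a genotype term).

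Of 6 stellate cell markers 3 (Colec11, Rgs5 and Reln) were higher in all 4 pairs, and of 10 smooth muscle and pericyte markers 4 were higher and 1 lower, where 7.98% of all genes tested were higher and 14% lower. One of these 4 was Actg2, the enteric smooth muscle actin, with 6.65, 4.67, 6.49 and 10.6 TPM in the metastases and 1.95, 1.18, 2.94 and 1.51 TPM in the lung tumors (difference 1.47 ± 0.41, adjusted p = 0.21). Of 7 Kupffer cell markers 3 were higher in all 4 pairs (42.9%, against 7.98% of all genes tested) and none was lower in all 4. The list as a whole was uneven, with medians of -0.05, 0.12, 2.38 and -0.09 and 4 of the 7 lower in JHK1398 and in JHK1394. Clec4f, a lectin that marks Kupffer cells in mice, had 1.36, 5.28, 23.1 and 24.9 TPM in the metastases and at most 0.204 TPM in any lung tumor (difference 3.14 ± 0.65, adjusted p = 0.153, and 0.0216 with a genotype term). Over all 23 lists of cell types, the summed level was higher in every metastasis for 3 (stellate cell, smooth muscle and pericyte, adipocyte) and lower in every metastasis for 8. Each of those 11 gave p = 0.13 in a two-sided exact sign-flip permutation test, which is the smallest p that 4 pairs allow. Of the 3 higher lists, the adipocyte list had 1 tested gene, Fabp4, so its sum stands for that gene. The stellate cell list and the smooth muscle and pericyte list share Rgs5 and Des, so they are not separate results.

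**Figure D2:**
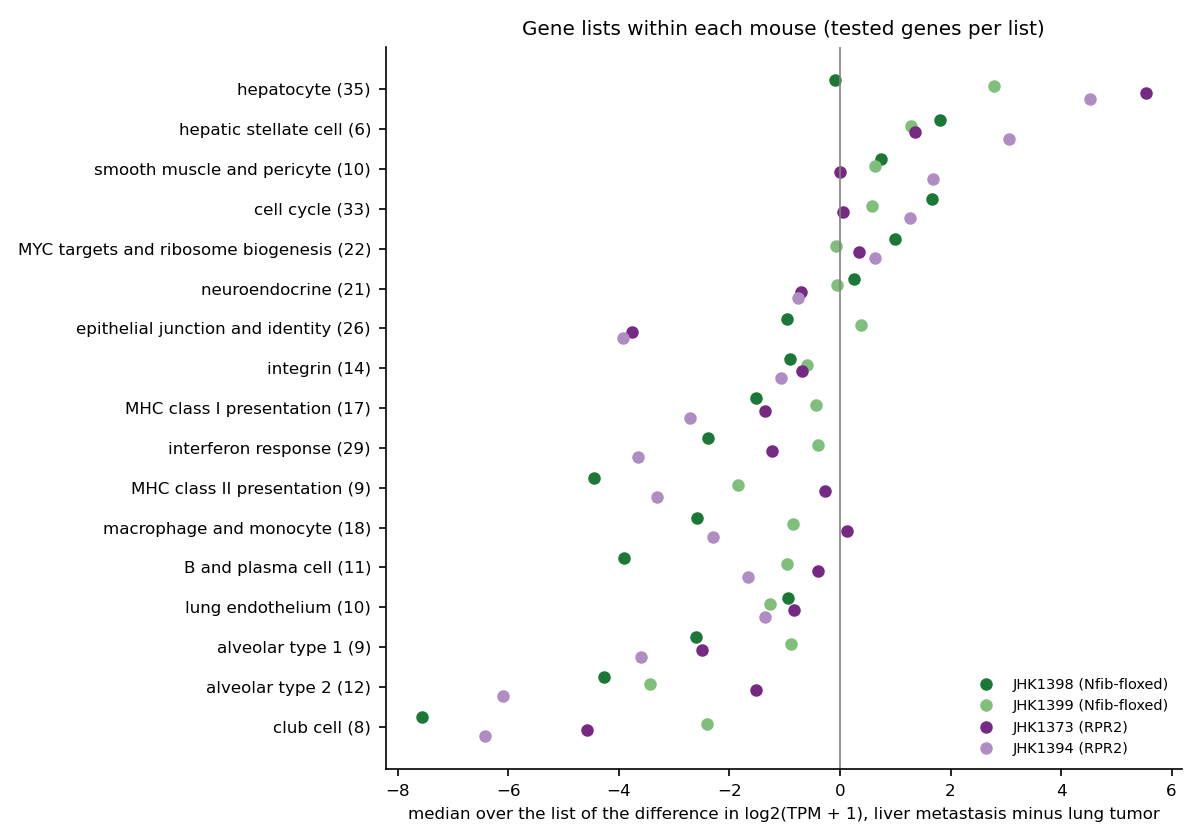
Median over each gene list of the difference in log2(TPM + 1), liver metastasis minus lung tumor, with 1 point per mouse and the number of tested genes in brackets. Alveolar type 2 and club cell medians lie below 0 in every mouse, and the hepatocyte median lies at -0.08 in JHK1398 and at 2.78 to 5.53 in the other 3 mice.

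Outside the cell type lists, Sox11, Stmn1 and Tubb3, which immature neurons express, were higher in every metastasis. Sox11, a transcription factor of immature neurons that also marks some small cell tumors, had 12.6, 22.9, 28.4 and 67.6 TPM in the metastases and 1.11, 3.35, 11.6 and 2.79 TPM in the lung tumors, with no overlap (difference 2.63 ± 0.50, adjusted p = 0.136, and 0.0423 with a genotype term). Stmn1, the microtubule-destabilizing protein stathmin, reached 7079, 2830, 9820 and 9047 TPM in the metastases and 1403, 1058, 5108 and 1509 TPM in the lung tumors (difference 1.82 ± 0.36, adjusted p = 0.142). The neuronal beta-tubulin gene Tubb3 had 96.1, 26.0, 95.6 and 129 TPM in the metastases and 2.86, 6.98, 51.5 and 4.54 TPM in the lung tumors (difference 2.96 ± 0.67, adjusted p = 0.173). For Stmn1 and Tubb3 the groups overlapped, because the lung tumor of JHK1373 was already high.

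Smoc1, a secreted calcium-binding matrix protein, had the largest smallest difference of the higher genes outside the lists, with 6.42, 8.82, 14.7 and 12 TPM in the metastases against 0.998, 0.255, 0.544 and 1.2 TPM in the lung tumors (difference 2.69 ± 0.42, adjusted p = 0.111, and 0.0282 with a genotype term). Fbp1, the gluconeogenic enzyme fructose bisphosphatase and a gene of hepatocytes that the list did not hold, had 19.1, 21.4, 66.1 and 68.5 TPM in the metastases and 4.92, 0.424, 9.85 and 12.2 TPM in the lung tumors. Dclk1, a doublecortin-like kinase of neurons and tuft cells, had 8.68, 7.71, 12.3 and 8.28 TPM in the metastases and 1.35, 2.63, 2.21 and 2.82 TPM in the lung tumors (difference 1.66 ± 0.39, adjusted p = 0.176). Neuronal genes as a whole did not move together. Of 27 genes of axon growth and neuronal migration 2 (Tubb3 and Reln) were higher and 2 (Ntn1 and Nrp1) lower in all 4 pairs, with a median of 0.27.

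Regulators of small cell lung cancer moved one way in few cases. Of 18 lineage factors 5 were higher in every metastasis (27.8%, against 7.98% of all genes tested), among them Sox11, Mycl and Mycn, and 1, the Notch target Hes1, was lower in every metastasis. The list's median difference was -0.06. Mycn differed by only 0.09 and 0.12 in the Nfib-floxed pairs, against 1.90 and 3.21 in the RPR2 pairs. Mycl, the MYC family member often amplified in this cancer, had 981, 31.6, 482 and 166 TPM in the metastases and 12.2, 20.4, 149 and 106 TPM in the lung tumors. The size ran from 0.60 in JHK1399 to 6.21 in JHK1398, and the mean of 2.29 ± 0.88 did not pass (adjusted p = 0.292). Mycl lies on chromosome 4, as do Stmn1 and Rcc1, the nucleotide exchange factor of the nuclear transport GTPase Ran. The median difference of the 962 tested genes of that chromosome was 0.40, 0.16, -0.47 and 0.20 in the 4 pairs, against 0.15, -0.11, -0.27 and 0 over all genes tested, and the part of the chromosome in these differences was not tested. Rcc1 had 138, 134, 388 and 247 TPM in the metastases and 26.2, 59.8, 169 and 51.0 TPM in the lung tumors (difference 1.74 ± 0.31, adjusted p = 0.114, and 0.0403 with a genotype term).

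Most neuroendocrine genes had no common direction. Of 21 tested, 4 (Resp18, Chgb, Syp and Calca) were lower in all 4 pairs, a share of 19.0% near the 14% of all genes tested, and none was higher in all 4. Resp18, a protein of secretory granules, had 197, 893, 112 and 68.4 TPM in the metastases and 1777, 1721, 567 and 1033 TPM in the lung tumors (difference -2.58 ± 0.46, adjusted p = 0.114, and 0.0294 with a genotype term). Calca, which encodes calcitonin and its related peptide, had 5470, 57529, 545 and 1410 TPM in the metastases and 6044, 68511, 18196 and 9162 TPM in the lung tumors. Its differences of -0.14 and -0.25 in the Nfib-floxed pairs were small beside -5.06 and -2.70 in the RPR2 pairs, and the test of that difference did not pass (3.68 ± 0.89, adjusted p = 0.2).

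Genes of cell division were higher in the metastases. Of 33 cell cycle genes 17 were higher in all 4 pairs (51.5%, against 7.98% of all genes tested) and none was lower in all 4, with a median difference of 1.06. None passed in the planned fit, and 21 had an unadjusted p under 0.05, against 739 higher genes among all 15419 tested. Birc5, which encodes survivin, a subunit of the complex that guides chromosomes in mitosis, had 187, 145, 349 and 283 TPM in the metastases and 55.0, 69.7, 136 and 67.1 TPM in the lung tumors (difference 1.55 ± 0.27, adjusted p = 0.113, and 0.0375 with a genotype term, where it was the only member called). Aurkb, the kinase of the same complex, had 139.6, 163, 173 and 147 TPM in the metastases and 33.8, 68.5, 113 and 45.5 TPM in the lung tumors (difference 1.38 ± 0.30). For both the lowest metastasis lay above the highest lung tumor.

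The difference was uneven between mice. Among the 17 were genes of the G2 phase and mitosis, such as Cdk1, Ccnb1, Top2a, Aurka and Foxm1, the factor that drives their transcription. None of the 6 replication licensing genes Mcm2 to Mcm7 was among them. By pair, the list's median was 1.66, 0.57, 0.06 and 1.26, so the pair of JHK1373 hardly differed. Without that pair 26 of the 33 were higher in every remaining pair, and with median centring over all 4 pairs also 26. The counts over all 15419 genes tested grew as well under these settings, from 1231 higher in every pair to 2480 and 2160. Mki67, the common proliferation marker, was at 170, 195, 127 and 223 TPM in the metastases and 68.1, 128, 172 and 71.7 TPM in the lung tumors, lower in the metastasis of JHK1373 than in its lung tumor. The pairs with the smallest medians were those whose lung tumors had the least club cell transcript, JHK1399 and JHK1373, and the part of the admixed lung in these differences was not tested.

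The promoters of the cell cycle genes share the CCAAT box, a short element bound by nuclear factor Y, and 3 are shown because they carry it in several copies. Of the 13 genes higher in all 4 pairs that have an entry among RefSeq promoters of GRCm38.p6, 11 (84.6%) held CCAAT on either strand in the 250 bases before the start. Among the list's other members it was 11 of 14 (78.6%), and among all 27025 genes with a promoter 37.5%. The share was thus similar in members that moved one way and in those that did not. Each line gives the 110 bases before the transcription start, 5′ to 3′ on the gene's strand, with CCAAT or its reverse complement in capitals.
Cdk1 (chr10:69352913-69353022, minus strand): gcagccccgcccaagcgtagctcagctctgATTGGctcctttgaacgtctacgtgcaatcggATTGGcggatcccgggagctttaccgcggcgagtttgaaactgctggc
Ccnb2 (chr9:70421555-70421664, minus strand): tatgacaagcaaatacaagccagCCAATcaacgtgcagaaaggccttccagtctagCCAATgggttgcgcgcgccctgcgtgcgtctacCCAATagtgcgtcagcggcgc
Top2a (chr11:99024190-99024299, minus strand): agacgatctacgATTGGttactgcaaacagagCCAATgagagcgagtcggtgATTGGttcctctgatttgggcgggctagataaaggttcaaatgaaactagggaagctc

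Genes induced by interferon and genes of antigen presentation were lower in the metastases. Of 29 interferon response genes 19 were lower in all 4 pairs (65.5%, against 14% of all genes tested) and none was higher in all 4. With quantile normalization 13 of the 29 were lower in all 4 pairs, and with median centring 14. Over all genes tested 1573 and 1532 were lower in all 4 pairs under these settings. For 14 of the 29 the 4 metastases lay below all 4 lung tumors, against 5.58% of all genes tested. None passed in the planned fit, where 25 had an unadjusted p under 0.05, against 1594 lower genes among all 15419 tested. In the model with a genotype term 5 of the 29 fell, against 2.06% of all genes tested. Samd9l, an interferon-induced brake on translation, was the member with the largest smallest difference, with 0.798, 0.866, 2.07 and 1.87 TPM in the metastases and 39.9, 18.5, 9.24 and 44.0 TPM in the lung tumors (difference -3.40 ± 0.51, adjusted p = 0.111, and 0.0216 with a genotype term). Isg15, a ubiquitin-like modifier, had 5.44, 12, 7.37 and 4.33 TPM in the metastases and 73.6, 17.4, 22.5 and 157 TPM in the lung tumors (difference -2.60 ± 0.69, adjusted p = 0.204). The lung tumors spanned a wider range than the metastases in both genes.

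By pair the interferon list's median was -2.38, -0.39, -1.23 and -3.65. The largest medians in size were in JHK1398 and JHK1394, whose lung tumors held the most club cell transcript, and the smallest was in JHK1399. Beside it, summed macrophage and monocyte markers stood at 318, 495, 962 and 426 TPM in the metastases and at 2216, 1241, 937 and 6052 TPM in the lung tumors. The part of normal lung and of immune cells in these differences was not tested.

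Many promoters of these genes carry the element through which interferon acts, searched as GAAA, any 2 bases and GAAA on either strand, and 3 are shown. Among the 17 genes lower in all 4 pairs with a promoter entry, 11 (64.7%) held it in the 250 bases before the start. It was found for 3 of 5 other members (60%) and for 3.46% of all 27025 genes. Each line gives the 110 bases before the start on the gene's strand with the matches, which overlap in Isg15 and Oas1a, in capitals.
Isg15 (chr4:156200819-156200928, minus strand): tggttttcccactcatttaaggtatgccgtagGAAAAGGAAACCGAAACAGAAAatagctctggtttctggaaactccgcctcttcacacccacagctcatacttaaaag
Oas1a (chr5:120907526-120907635, minus strand): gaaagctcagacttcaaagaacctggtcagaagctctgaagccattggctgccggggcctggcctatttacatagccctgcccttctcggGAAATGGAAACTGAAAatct
Ifit1 (chr19:34640779-34640888, plus strand): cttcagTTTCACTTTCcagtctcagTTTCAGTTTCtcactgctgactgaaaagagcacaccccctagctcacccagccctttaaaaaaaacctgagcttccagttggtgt
Ifit1, an RNA-binding antiviral protein, had 3.51, 4.27, 2.11 and 0.966 TPM in the metastases and 22.5, 5.39, 27.8 and 51.8 TPM in the lung tumors. Oas1a, an enzyme that senses double-stranded RNA, had 2.18, 7.36, 2.91 and 2.22 TPM in the metastases and 34.2, 8.89, 14.5 and 73.2 TPM in the lung tumors.

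Of 17 genes of MHC class I presentation, which shows peptides of the cell's own proteins to T cells, 11 were lower in every metastasis (64.7%, against 14% of all genes tested) and none was higher in all 4. H2-K1, a classical class I heavy chain, had 494, 691, 319 and 212 TPM in the metastases and 1410, 1130, 877 and 1827 TPM in the lung tumors, without overlap (difference -1.70 ± 0.39, adjusted p = 0.176, and 0.0492 with a genotype term). Its partner B2m had 1842, 1667, 964 and 547 TPM in the metastases and 5533, 2522, 2305 and 6294 TPM in the lung tumors. Reads of H2 genes may be shared among near-identical copies, so single heavy chain levels are uncertain. The count of 11 was the same under each filter and scaling tried, and was 11 to 13 when a pair was left out. A pseudocount cannot change the sign of a difference, so it was no check of this count. Of 9 class II genes, which professional antigen-presenting cells use, 8 were lower in all 4 pairs (88.9%), but 4 with quantile normalization and 3 with median centring. The class II median was only -0.27 in JHK1373, against -4.45, -1.85 and -3.32 in JHK1398, JHK1399 and JHK1394.

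**Figure D3:**
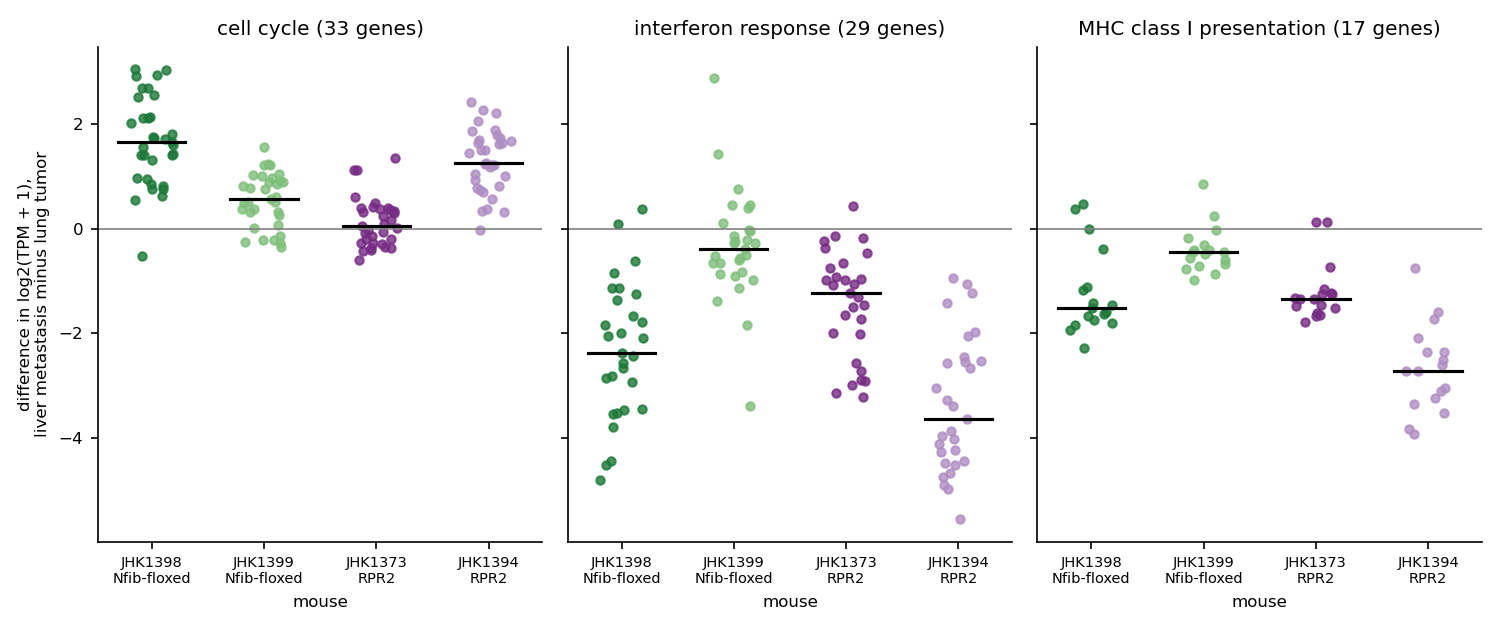
Difference in log2(TPM + 1), liver metastasis minus lung tumor, of each tested gene of 3 lists in each mouse, with the list's median as a black bar. Cell cycle medians lie between 0.06 and 1.66, interferon medians between -3.65 and -0.39 and MHC class I medians between -2.71 and -0.44.

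Antibody transcripts were lower in every metastasis. Of 132 tested antigen receptor gene segments 91 were lower in all 4 pairs (68.9%, against 14% of all genes tested) and none was higher. Of the 216 genes lower by more than 1 in every pair, 47 were such segments. Summed, they made up 44.6, 54.5, 1513 and 128 TPM of the metastases and 22651, 2666, 2254 and 1709 TPM of the lung tumors. Igha, the constant region of IgA, had 8.82, 7.37, 171 and 21.6 TPM in the metastases and 6206, 468, 419 and 395 TPM in the lung tumors (difference -5.13 ± 1.09, adjusted p = 0.161, and 0.015 with a genotype term). Jchain, which joins secreted IgA and IgM, had 1.56, 2.05, 43.3 and 7.32 TPM in the metastases and 612, 86.6, 110.4 and 85.4 TPM in the lung tumors. The metastasis of JHK1373 held the most antibody transcripts of the 4 metastases, with the smallest difference of the 4 pairs.

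Integrins, the receptors that bind cells to matrix, were mostly lower too. Of 14 integrin subunit genes 9 were lower in all 4 pairs (64.3%, against 14% of all genes tested) and none was higher, with a median of -0.97, and none passed by either fit. Itgav, the alpha subunit of vitronectin receptors, had 5.58, 33.5, 11.7 and 17.7 TPM in the metastases and 103, 51.0, 23.3 and 39.4 TPM in the lung tumors (difference -1.66 ± 0.57, adjusted p = 0.253). Its epithelial partner Itgb6 was at 0.0528 TPM or less in each metastasis and at 1.28, 0.666, 2.41 and 6.18 TPM in the lung tumors. With a minimum mean of 5 TPM the integrin count was 5 of the 8 then tested, since several members are low. Of 29 genes of matrix and basement membrane 7 were lower (24.1%) and 1 higher in all 4 pairs, and of 18 genes of WNT and BMP signaling 6 were lower (33.3%) and none higher. The summed markers of alveolar, endothelial and fibroblast cells were lower in every metastasis as well, and their part in these counts was not tested. Hypoxia and glycolysis genes (1 of 22 lower, none higher) and genes of cholesterol and fatty acid synthesis (1 of 18 lower, none higher) had no common direction.

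Some genes changed differently in the 2 genotypes. In the paired model 16 genes (0.104%) had a change that was higher in the Nfib-floxed pairs than in the RPR2 pairs, and none (0%) had the reverse, where the smallest adjusted p was 0.0672. At an unadjusted p under 0.05 there were 852 and 621. Cdh1, the gene of the epithelial adhesion molecule E-cadherin, had 236, 352, 5.46 and 5.20 TPM in the metastases and 209, 366, 446 and 426 TPM in the lung tumors. Its 4 lung tumors thus lay between 209 and 446 TPM, and both RPR2 metastases stood apart from all other libraries. The differences were 0.18, -0.06, -6.11 and -6.11 (Nfib-floxed change minus RPR2 change 6.17 ± 0.52, adjusted p = 0.0188). Leaving out JHK1398 left 0 such genes and leaving out JHK1399 left none higher and 1 lower, while leaving out JHK1373 left 29 higher and 3 lower and leaving out JHK1394 left 44 and 13. No gene passed with quantile normalization, with median centring or without a filter, and 29 were higher and 3 lower without the mouse block.

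Other genes past this threshold were also low in both RPR2 metastases, and the spread of their lung tumors varied by gene. Esrp1, a splicing regulator of epithelia, had 74.9, 154, 1.60 and 1.69 TPM in the metastases and 71.4, 61.6, 141 and 103 TPM in the lung tumors (6.21 ± 0.66, adjusted p = 0.0309). Aldh1a3, a retinaldehyde dehydrogenase, had 85.4, 105, 1.51 and 1.73 TPM in the metastases and 42.6, 51.8, 143 and 186 TPM in the lung tumors (6.97 ± 0.58, adjusted p = 0.0188). Tspan1, an epithelial tetraspanin, had 60.4, 102, 1.55 and 2.75 TPM in the metastases and 30.3, 68.6, 258 and 199.9 TPM in the lung tumors (6.97 ± 0.62, adjusted p = 0.0193). Also past the threshold were R3hdml (6.04 ± 0.61, adjusted p = 0.0309) and the anoctamin gene Ano9 (5.98 ± 0.67, adjusted p = 0.0325). R3hdml had 234, 319, 2.53 and 3.93 TPM in the metastases and 288, 181, 228 and 230 TPM in the lung tumors. For Aldh1a3 and Tspan1 the lung tumors were higher in RPR2 than in Nfib-floxed mice, and the Nfib-floxed pairs differed by 0.99 and 1.01 for Aldh1a3 and by 0.97 and 0.57 for Tspan1. For all 6 the RPR2 metastases were below 6 TPM and every other library was above 30 TPM. The wider list of epithelial junction and identity genes did not hold steady in both Nfib-floxed pairs. Of its 26 tested genes, 21 were lower in JHK1398 and 5 in JHK1399, against all 26 in each RPR2 pair. The list's medians were -0.96, 0.38, -3.77 and -3.93, against 0.15, -0.11, -0.27 and 0 over all genes tested.

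Other genes crossed over between the genotypes. Higher in both Nfib-floxed metastases and lower in both RPR2 metastases were 1080 genes (7%), and 670 (4.35%) had the reverse pattern, 30 and 28 of them by more than 1 in every pair. With median centring the counts were 833 and 1059, so which pattern was more common depended on scaling. Sstr1, a somatostatin receptor gene, had 11.9, 26.2, 0.438 and 0.847 TPM in the metastases and 0.881, 3.04, 20.9 and 7.96 TPM in the lung tumors (5.87 ± 0.88, adjusted p = 0.0672). Thbs4, a thrombospondin of the matrix, had 0.688, 0.425, 95.6 and 68.9 TPM in the metastases and 6.78, 25.1, 2.54 and 9.61 TPM in the lung tumors (-6.95 ± 1.01, adjusted p = 0.0672). Gria2, an AMPA-type glutamate receptor subunit, had 0.776, 8.85, 58.2 and 52.1 TPM in the metastases and 21.8, 41.4, 2.33 and 11.6 TPM in the lung tumors (-6.01 ± 0.94, adjusted p = 0.0748). In these 3 genes each pair differed by more than 2 in opposite directions by genotype, and none passed the threshold. Nfix, a relative of Nfib, crossed in the same way as Thbs4, with 2.11, 20.4, 41.4 and 172 TPM in the metastases and 9.40, 56.7, 8.99 and 15.8 TPM in the lung tumors (-4.31 ± 0.71, adjusted p = 0.0802).

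**Figure D4:**
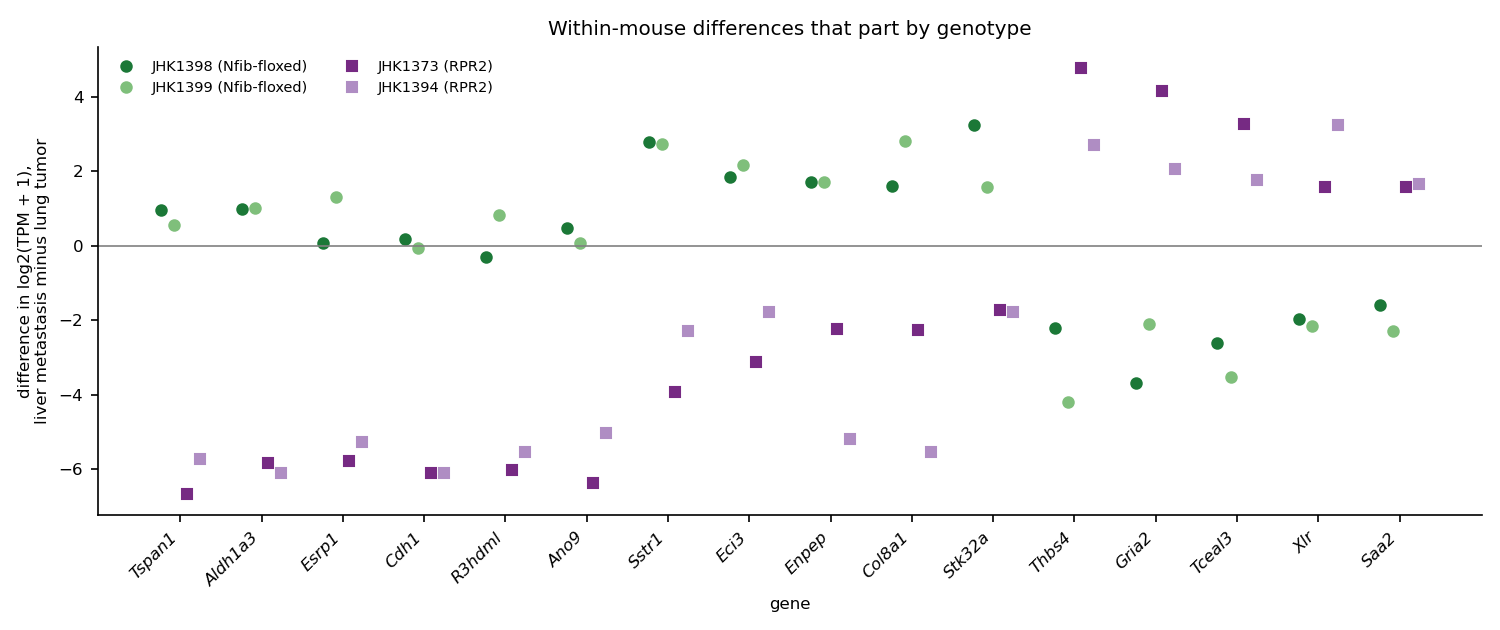
Difference in log2(TPM + 1), liver metastasis minus lung tumor, in each of the 4 mice for 16 genes whose change parted by genotype, circles for Nfib-floxed and squares for RPR2 mice. At the left 6 genes passed the test of the genotype difference, with both RPR2 pairs far below 0 and the Nfib-floxed pairs between -0.30 and 1.31, and at the right 10 genes moved in opposite directions without passing.

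Whole chromosomes also moved in single pairs, a description added after the values had been seen. In JHK1399 the median difference of the 504 tested genes of the X chromosome was -1.0, and 441 of them (87.5%) were lower in the metastasis, against medians of 0.14, -0.15 and 0 in JHK1398, JHK1373 and JHK1394. Over all genes tested in JHK1399 the median was -0.11, and 8956 of 15419 were lower. The lung tumor of JHK1399 was the library that stood apart: its X-linked genes lay a median of 1.0 above each gene's median over the 8 libraries, against 0.10 for its autosomal genes. In the other 7 libraries the X-linked median ran between -0.30 and 0.03. Chromosome 19 was lower in the same metastasis, with a median of -0.43 and 79.8% of its 510 genes lower. Syp, the X-linked gene of the vesicle protein synaptophysin, was highest in that lung tumor, with 98.2, 163, 60.5 and 74.5 TPM in the metastases and 121, 561, 159 and 187 TPM in the lung tumors.

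In JHK1394, the mouse whose tumors expressed Y-linked genes, these were lower in the metastasis. Eif2s3y had 10.2 TPM there against 80.0 TPM in the lung tumor, Ddx3y 5.10 against 28.5 TPM and Uty 1.16 against 15.5 TPM. In the other 3 mice none of the 3 genes exceeded 1 TPM in either tissue. These are single libraries, so the X-linked and Y-linked differences have no replicate.

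**Figure D5:**
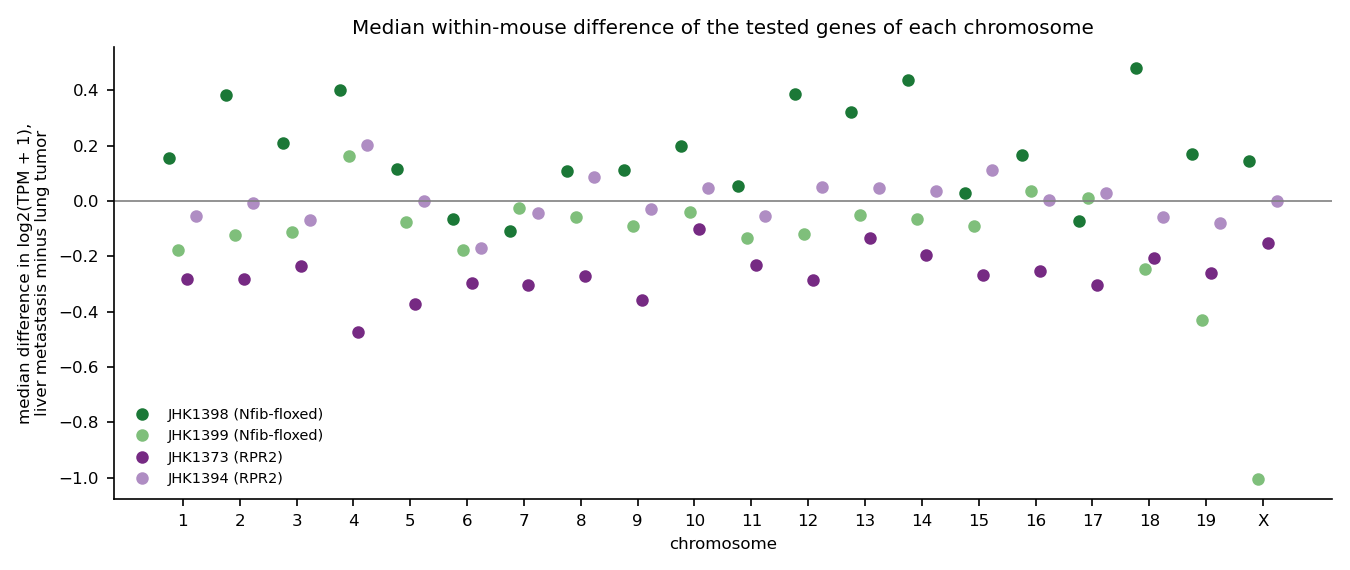
Median difference in log2(TPM + 1), liver metastasis minus lung tumor, over the tested genes of each chromosome, with 1 point per mouse. The X chromosome of JHK1399 lies at -1.0, below every other point, and chromosome 4 lies at -0.47 in JHK1373 and at 0.16 to 0.40 in the other 3 mice.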

How the data were processed

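Poly(A)-selected RNA of macrodissected, snap-frozen tumors was sequenced, per the labels' protocols. The submitters' processing notes name bcl2fastq 2.20, Salmon 0.12.0, R 4.1.0 and the build GRCm38. The authors deposited 1 table of TPM values for 35288 genes and all 10 libraries, 8 of which were used except where all 10 are named. TPM keeps no sequencing depth, so the precision of single values is unknown, and a very abundant transcript lowers all others in its library. Coordinates come from GENCODE vM21 (GRCm38), in which 35099 of the gene identifiers were found.

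TPM values were analysed as log2(TPM + 1) with limma 3.58.1 in R 4.3.3, with the mouse as a block, a mean-variance trend and genes of at least 1 TPM on average. The genotype difference was tested in the same model as the difference of the within-mouse changes. Labels do not say whether libraries have technical repeats, and each mouse gave 1 library per tissue. The pairing comes from the mouse tag. Beyond tissue and genotype means the 2 tumors of a mouse hardly deviated together (r = 0.043, 0.049, -0.022 and -0.011). These means were taken over all 10 libraries, the 2 unpaired lung tumors included. With 2 metastases per genotype their deviations are equal and opposite, so the 4 values are not independent.

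The mice, the 47 gene lists and the genes in them were chosen with earlier results of these data known. Named genes were those with the largest smallest difference over the 4 pairs and at least 5 TPM in the higher tissue (12 per direction), the same outside the cell type lists, genes past the threshold, up to 4 members per list, the genes parted most by genotype, and a fixed set that includes Mycl, Cdh1, Nfix, Alb and Mki67. Aurkb, Tubb3, Itgav and the promoter examples were named after their values were seen where that rule does not cover them. Promoters are the RefSeq entries of GRCm38.p6. Fits were tested on simulated data. Alternatives changed the pseudocount, filter, scaling, block and moderation, or left out a pair.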

Additional observations from a re-analysis of the deposited data

Results flagged for a closer look

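In 5 of 82 sets of 4 within-mouse differences, 1 pair stood far from the other 3 (its gap to the nearest pair took up more of the whole range than Dixon's 95% limit), and chance alone gives about 1 in 20. The difference of Colec11 was 2.74 in JHK1398, below the other 3 pairs. The difference of Itgav was -3.98 in JHK1398. The median difference of the Kupffer cell markers was 2.38 in JHK1373. The differences of the Y-linked genes Eif2s3y and Ddx3y were -2.86 and -2.27 in JHK1394, the pair whose tumors express them.

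For 6 of the named genes the within-mouse change differed between the genotypes by limma's test of that difference. The Nfib-floxed change minus the RPR2 change, on the log2 scale, was 6.17 for Cdh1, 6.21 for Esrp1, 6.97 for Aldh1a3, 6.97 for Tspan1, 6.04 for R3hdml and 5.98 for Ano9. With 2 mice per genotype, the genotype cannot be told apart from other differences between these mice.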

How the results depend on the processing

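The number of genes past the threshold for metastasis against lung tumor (3) was 11 with a pseudocount of 0.1, 0 with a pseudocount of 5, 0 without a filter, 6 with a minimum of 5 TPM and 1 with median centring. Without the replicate block it was 31, and with the block as a random effect 24. With the 2 unpaired lung tumors added it was 941. That fit had no block and also let each genotype have its own change, so the samples and the model changed together. With the block and the added genotype term the number was 409, and with a pair left out 0 to 47. The number of genes whose change differed by genotype (16) was 3 with a pseudocount of 5, 35 with a minimum of 5 TPM, 3 after rescaling without cell type genes, 3 against a minimum change of 1, and 0 without a filter, with quantile normalization, with median centring or without a mean trend. Without the replicate block it was 32, with all 10 libraries 92, with a random block 52 and with a pair left out 0 to 57. The cause of these shifts was not tested. Genes moving one way in every pair (3392) numbered 4128 to 5865 and genes opposite by genotype (1750) 2478 to 4211 with a pair left out, where fewer pairs have to fit. Without JHK1398, 225 genes were higher by more than 1 in every pair, against 19 with all pairs. The median over all genes was -0.04 as reported and 0.06 with either quantile normalization or median centring. List counts shifted too. Cell cycle (17) was 26 with median centring and 17 to 26 with a pair left out. Interferon (19) was 13 with quantile normalization and 14 with median centring. Hepatocyte (15) was 22 with quantile normalization, 11 with median centring and 13 after rescaling without cell type genes. It was 14 of 33 at 5 TPM and 15 to 32 with a pair left out. Class II (8) was 4 with quantile normalization and 3 with median centring, and B and plasma cell (8) was 5 with median centring. At 5 TPM fewer members were tested, and integrin was 5 of 8 (against 9 of 14) and antigen receptor segments 44 of 55 (against 91 of 132). Of the 52 genes named with values, 2 reversed: with a pair left out the difference of Eif2s3y ran between -0.79 and 0.34 and that of Ddx3y between -0.72 and 0.11, above 0 without JHK1394, the other mice having near none of either transcript. Depth is unknown, so low levels carry an unstated counting error.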
